A study of Homo sapiens with 19 samples.

Results

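The genes of the CoREST complex, the drug target of the study, were followed as a group of 9 among the 20033 protein-coding genes of GENCODE release 44: KDM1A, RCOR1, RCOR2, RCOR3, HDAC1, HDAC2, HMG20B, PHF21A and ZNF217. The rule that picks them is their place in the complex, and they lie on chromosomes 1 (KDM1A, RCOR3 and HDAC1), 6 (HDAC2), 11 (RCOR2 and PHF21A), 14 (RCOR1), 19 (HMG20B) and 20 (ZNF217). For each gene, the CUT&RUN peaks within 10 kb and 2 kb either side of its transcription start site (TSS) and over its gene body were taken from the lists of 12 libraries. CUT&RUN uses an antibody-directed nuclease to release the chromatin fragments that carry a mark.

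MOLM-13, an established human acute myeloid leukaemia cell line, was profiled for H3K27ac, H3K4me2 and H3K4me3. Per the labels, 1 group was given Corin at 0.1 µM for 24 h, and the control group was given the vehicle DMSO for 24 h. The labels print 0.1 µM for DMSO as well, and what that number means for a vehicle is unclear. Each mark and treatment had 2 libraries, and the labels do not say that these came from separate cultures, so p-values measure the spread between libraries. All groups are bulk samples of 1 cell line, in which fewer marked cells and less mark per cell cannot be told apart.

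CoREST is a corepressor that removes active marks from chromatin. KDM1A (LSD1) takes methyl groups from H3K4me1 and H3K4me2 but cannot act on H3K4me3, and HDAC1 and HDAC2 take acetyl groups from histone tails. The RCOR proteins hold these enzymes together, and in myeloid cells the repressor GFI1 brings the complex to its target genes. Corin joins an inhibitor of LSD1 and an inhibitor of class I deacetylases in a single molecule.

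The lists held 17599 to 34424 peaks for H3K27ac, 30896 to 41152 for H3K4me2 and 11104 to 11883 for H3K4me3, and both Corin lists were longer than both DMSO lists for each mark. The labels give only a minimum of 5000000 reads per library, so no detection floor was computed. Of 10 myeloid marker genes, 5 (SPI1, CEBPA, FLT3, MEIS1 and HOXA9) had an H3K4me3 peak over the TSS in all 4 libraries of that mark. CD33 and LYZ had a peak within 2 kb in all 4, CSF1R in some, and MPO and ITGAM had none within 2 kb. No TSS of the 5 T cell, 5 B cell, 5 erythroid, 4 hepatocyte or 4 neuron markers was covered in all 4. EPOR and TUBB3 had peaks within 2 kb in all 4, and APOA1 in some.

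The promoters of 5 members are printed because their peaks carry the patterns described next: the demethylase, the main scaffold, both deacetylases, and the subunit with few bases under H3K27ac peaks. Sequences are from RefSeq on GRCh38.p14, in the gene's own direction, up to the last base before an annotated exon. Capitals mark the GC box GGGCGG and the CCAAT box on either strand.
KDM1A, chr1:23019218-23019442, plus strand: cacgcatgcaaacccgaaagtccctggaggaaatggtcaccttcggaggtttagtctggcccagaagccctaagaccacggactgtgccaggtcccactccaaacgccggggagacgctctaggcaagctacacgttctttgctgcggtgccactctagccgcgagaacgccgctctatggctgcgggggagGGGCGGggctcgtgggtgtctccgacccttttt
RCOR1, chr14:102592399-102592648, plus strand: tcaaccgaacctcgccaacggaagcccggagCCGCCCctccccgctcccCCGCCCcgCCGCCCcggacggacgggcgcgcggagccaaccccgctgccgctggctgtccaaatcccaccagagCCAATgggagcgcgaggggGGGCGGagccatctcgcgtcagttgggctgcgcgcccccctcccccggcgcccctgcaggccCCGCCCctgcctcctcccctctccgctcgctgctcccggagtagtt
HDAC1, chr1:32291833-32292082, plus strand: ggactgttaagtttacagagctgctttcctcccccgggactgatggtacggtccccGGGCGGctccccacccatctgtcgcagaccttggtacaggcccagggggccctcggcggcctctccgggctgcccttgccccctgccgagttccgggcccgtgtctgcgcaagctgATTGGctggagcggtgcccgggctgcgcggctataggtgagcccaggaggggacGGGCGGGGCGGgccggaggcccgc
HDAC2, chr6:113971158-113971398, minus strand: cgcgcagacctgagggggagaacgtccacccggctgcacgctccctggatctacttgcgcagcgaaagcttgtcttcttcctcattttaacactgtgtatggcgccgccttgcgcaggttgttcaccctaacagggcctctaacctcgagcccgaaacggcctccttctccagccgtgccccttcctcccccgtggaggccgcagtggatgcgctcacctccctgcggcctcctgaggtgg
HMG20B, chr19:3572694-3572776, plus strand: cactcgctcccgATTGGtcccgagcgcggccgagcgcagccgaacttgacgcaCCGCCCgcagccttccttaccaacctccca

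The 8 members with an entry in the RefSeq promoter table had a TSS that matched the canonical one. Their 250 bases upstream of it were 63.2% to 84.0% G or C, against a median of 58.0% over 35116 promoters. Further entries at other TSSs of PHF21A (57.6% and 77.2%) and RCOR3 (75.6%, with 1 CCAAT box) were left out of the member counts, whereas the 35116 include every entry. GC boxes, the binding letters of Sp1-type factors, occurred in 7 of the 8, with 5 each at RCOR1 and HMG20B and none at HDAC2, and in 42.6% of all promoters. A CCAAT box, the letters read by NF-Y, occurred at RCOR1, HDAC1 and HMG20B, and in 32.0% of all promoters. The counts cover all 250 bases, of which HMG20B's printed stretch is only a part, and overlapping GC boxes were counted separately. On either strand, the TATA box TATAAA occurred at 0 of the 8 and in 10.7% of all promoters. The E-box CACGTG occurred at 0 of the 8 and in 6.34% of all promoters. The ETS core CCGGAAG occurred at 0 of the 8 and in 8.52% of all promoters. These matches are letters in a window and describe no binding.

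H3K4me3, a mark of active promoters, was present at 8 of the 9 members in all 4 libraries and absent at RCOR2. Within the common 20 kb window, PHF21A, which encodes a reader of unmethylated H3K4, had 2910 and 3264 bp under H3K4me3 peaks in DMSO, and HDAC1 had 863 and 1022 bp. From high to low mean in DMSO the order was PHF21A, RCOR3, RCOR1, HDAC2, ZNF217, KDM1A, HMG20B and HDAC1. The libraries of PHF21A and RCOR3, of RCOR1 and HDAC2, and of HDAC2 and ZNF217 overlapped, and the other neighbours in this order did not. Over all 4 libraries PHF21A stood at the 88.1 to 91.5 percentile of genes with an H3K4me3 peak, and HDAC1 at the 20.9 to 26.5 percentile. Base pairs under peaks measure the length covered, not the height of the signal.

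**Figure D1:**
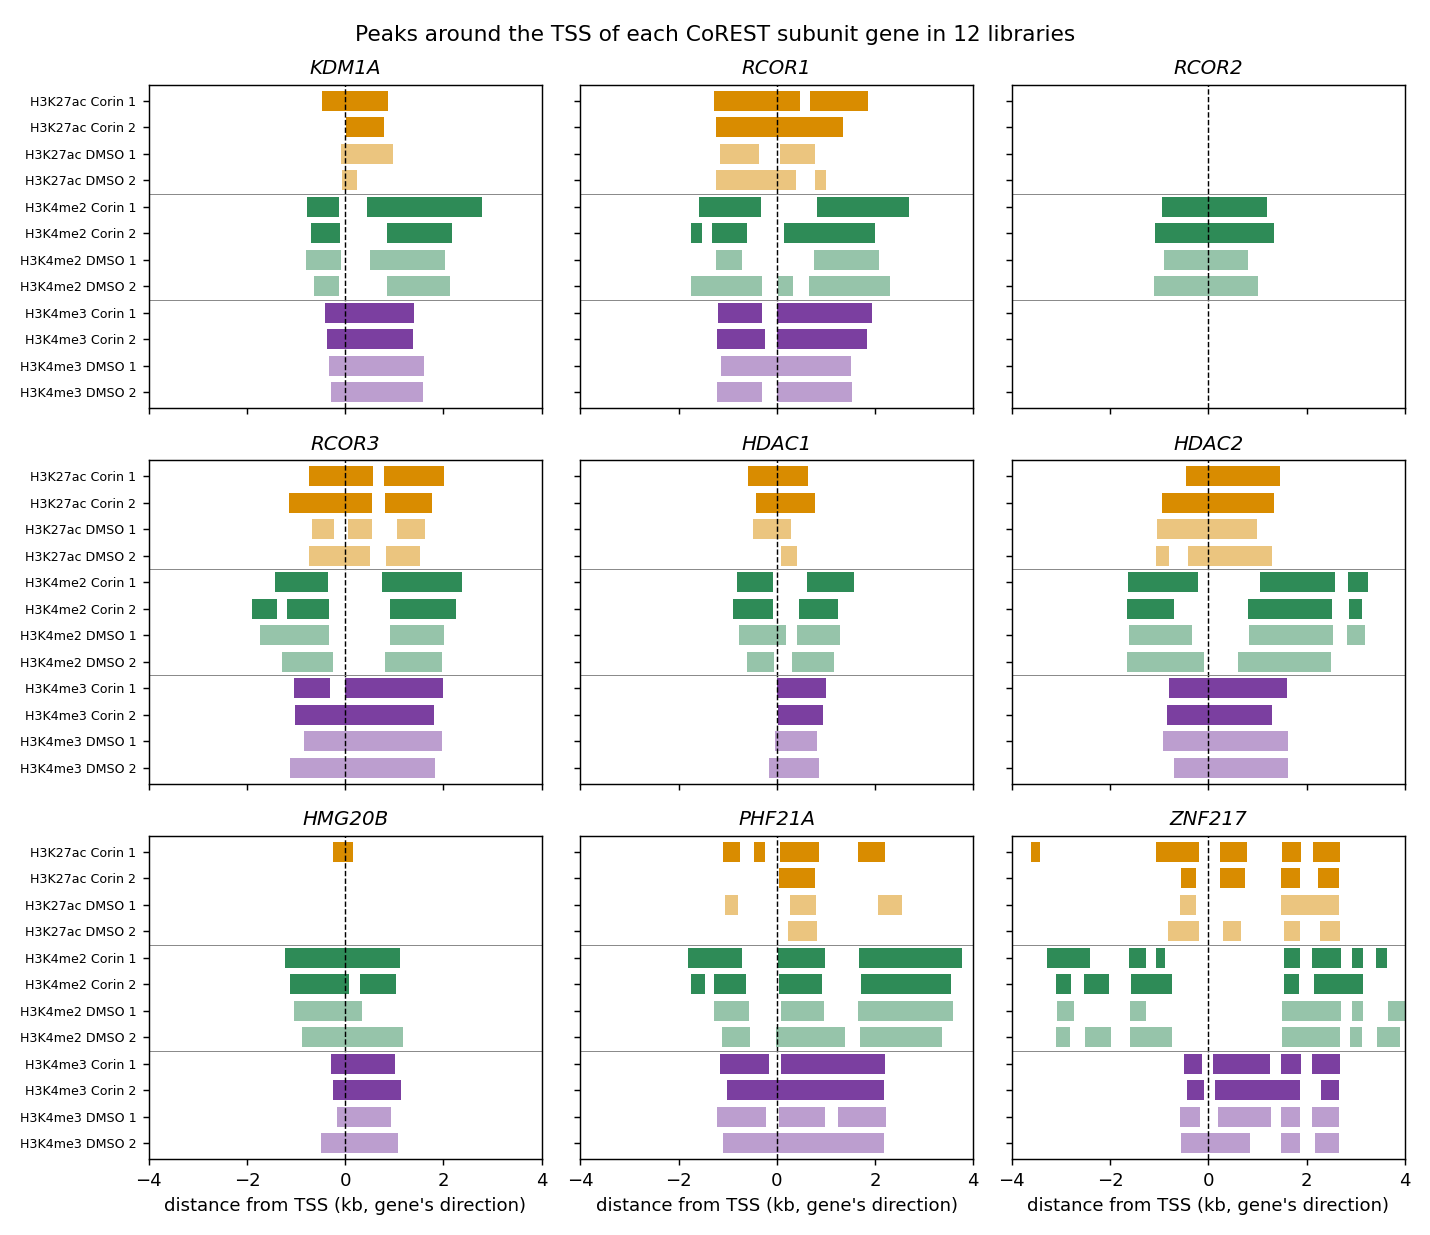
Peaks of all 12 libraries within 4 kb of the TSS of each of the 9 genes, with distance in kb in the gene's direction on the x axis, 1 row per library, dark bars for Corin and light bars for DMSO, and the TSS as a dashed line. RCOR2 has H3K4me2 alone and across its TSS, whereas at KDM1A, RCOR1, RCOR3, HDAC2 and ZNF217 no H3K4me2 peak covers the TSS base in any of the 4 libraries.

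At 5 of the 8 members with H3K4me3, H3K4me2 lay on both sides of the TSS and not over it in any library. At 4 of these 5 the TSS base was under H3K4me3 in at least 3 of 4 libraries, and at ZNF217 in 1. At KDM1A, the H3K4me2 regions of the 4 libraries ran from -791 to -94 bp and from 438 to 2784 bp of the TSS, with H3K4me3 from -405 to 1610 bp between and over them. HDAC2 had the same arrangement, with H3K4me2 from -1652 to -88 bp and from 600 to 2573 bp and H3K4me3 from -923 to 1629 bp. The TSS base lay under an H3K4me2 peak in 0 of 4 libraries for KDM1A, RCOR1, RCOR3, HDAC2 and ZNF217, in 1 for HDAC1 and PHF21A, and in 4 for RCOR2 and HMG20B.

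Both arrangements are common in these cells. Of the 9666 genes with H3K4me3 and H3K4me2 within 2 kb in all 4 libraries of each mark, 28.5% had the TSS base free of H3K4me2 in all 4 libraries and 30.0% had it covered in all 4. KDM1A, RCOR1, RCOR3, HDAC2 and ZNF217 belonged to the former set, HMG20B to the latter, and HDAC1 and PHF21A to neither. The promoter windows of KDM1A and HDAC2 also hold a TSS of TEX46 and of the antisense RNA HDAC2-AS2, at -368 and -348 bp, and peaks of such neighbours cannot be told apart.

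RCOR2, the scaffold paralogue known best from stem cells and neurons, was the exception among the members. The H3K4me2 peak over its TSS (chr11:63915825-63918274 as the union of 4 libraries, from exon and intron into sequence outside the gene) was 2143 and 2419 bp wide in Corin and 1716 and 2133 bp in DMSO. By the authors' score it ranked at the 78.2 to 95.6 percentile of its lists. No H3K4me3 or H3K27ac peak lay within 10 kb of the TSS or over the gene body in any of the 8 libraries of those marks. Among all genes 1223, or 6.1%, had this pattern of H3K4me2 alone, and 65.1% of those had the TSS base covered in all 4 libraries.

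HMG20B, the HMG-box subunit that contacts DNA, carried both methyl marks with few bases under H3K27ac peaks. H3K4me3 covered 1296 and 1387 bp in Corin and 1102 and 1576 bp in DMSO, and H3K4me2 lay over its TSS in all 4 libraries. H3K27ac was called in Corin replicate 1 only, as a peak of 408 bp over the TSS, and the other 3 libraries had 0 bp within 10 kb. Corin replicate 1 had the longest H3K27ac list, at 34424 peaks. Of the 9776 genes with H3K4me3 within 2 kb in all 4 libraries, 15.3% had H3K27ac in no more than 1 library and 59.8% in all 4.

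Corin was compared with DMSO to ask whether the genes of the inhibited complex themselves changed their marks. In H3K27ac, both Corin libraries lay above both DMSO libraries at RCOR1, RCOR3, HDAC1 and HDAC2, which is 4 of the 7 members tested, and at 60.4% of 9627 genes. None of the 7 lay below, against 0.654% of genes. RCOR2 and HMG20B had peaks in fewer than 2 libraries and were not tested. The members stood near the background, with a median log2 fold change of 0.48 against 0.53 over all genes, and 3 of 7 lay above that median. With each library centred on its median over all genes, the log2 fold changes of KDM1A, RCOR3, HDAC2 and PHF21A were -0.12, -0.09, -0.43 and -0.37, and those of RCOR1, HDAC1 and ZNF217 were 0.01, 0.18 and 0.0039. limma on log2(bp + 500), with Benjamini-Hochberg adjustment over all genes, called 0 members and 0% of genes, with adjusted p from 0.195 to 0.799 for the members. At an unadjusted p below 0.05 it had 1 member, RCOR1, and 2372 genes. On simulated H3K27ac data, with a small set of genes shifted equally up and down, the fit made no call either. In these data 60.4% of genes were higher, so that simulation does not settle what the fit could call here. A missing call in any mark is not read as evidence that a gene did not change. With 2 libraries against 2, an exact permutation test cannot give a p below 0.333.

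RCOR1, the main scaffold, had 2929 and 2580 bp of H3K27ac in Corin and 1501 and 1866 bp in DMSO. The Corin libraries were both higher, 1.64-fold on the means, and the limma log2 fold change was 0.58 ± 0.225 (SE), with an adjusted p of 0.195. With every H3K27ac list limited to the same number of peaks, the RCOR1 log2 fold change was 0.28 and that of RCOR3, its paralogue, 0.72. RCOR3 had 2507 and 2653 bp in Corin and 1505 and 1941 bp in DMSO, again without overlap, with a log2 fold change of 0.48 ± 0.226 and an adjusted p of 0.243 by limma. Relative to the median of all genes the scaffolds differed by only 0.05 and -0.05.

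Within 10 kb of the TSS, HDAC1 had the largest ratio of means among the members with H3K27ac in all 4 libraries. It had 1223 and 1187 bp in Corin and 769 and 317 bp in DMSO, 2.22-fold on the means, with a log2 fold change of 0.74 ± 0.337 and an adjusted p of 0.231 by limma. The peak of Corin replicate 2 had a score of 63, at the 7.0 percentile of its list. With peaks scoring at least 100 only, and also with lists cut to the same number of peaks, the HDAC1 value turned to -0.13. Without DMSO replicate 1 it was 1.06, without DMSO replicate 2 it was 0.43, and over the gene body it was 0.38.

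HDAC2, the other deacetylase, had 2258 and 2282 bp in Corin and 2054 and 1987 bp in DMSO. Its groups did not overlap, but the ratio was 1.12, and its log2 fold change of 0.14 ± 0.209 was at the 15.2 percentile of all genes (adjusted p 0.68 by limma). Within 2 kb of the TSS the HDAC2 libraries overlapped, at 1921 and 2282 bp in Corin against 2054 and 1987 bp in DMSO.

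KDM1A, the demethylase, had 1334 and 770 bp in Corin and 1074 and 297 bp in DMSO, and all of this lay within 2 kb. PHF21A had 1911 and 726 bp in Corin and 1556 and 594 bp in DMSO. At both genes the replicate 1 libraries of the 2 treatments lay above the replicate 2 libraries of both treatments, so the treatments overlapped. Between libraries of the same number, Corin was above DMSO at both genes and for both numbers. Compared in this way, 6 of 7 members were higher in Corin for both numbers, against 72.9% of genes. The log2 fold change was 0.45 ± 0.436 (SE) for KDM1A (adjusted p 0.516 by limma) and 0.20 ± 0.472 for PHF21A (adjusted p 0.799 by limma). Leaving out 1 library at a time moved it between -0.04 (without DMSO replicate 2) and 0.94 (without DMSO replicate 1) for KDM1A. For PHF21A it was -0.29 without Corin replicate 1 and -0.26 without DMSO replicate 2, against 0.68 without Corin replicate 2 and 0.65 without DMSO replicate 1.

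With each H3K27ac list limited to its 17599 highest-scoring peaks, 2 of 7 members and 40.1% of genes were higher in both Corin libraries. Without Corin replicate 2, which leaves fewer libraries to lie apart, 7 of 7 members and 80.9% of genes were higher.

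**Figure D2:**
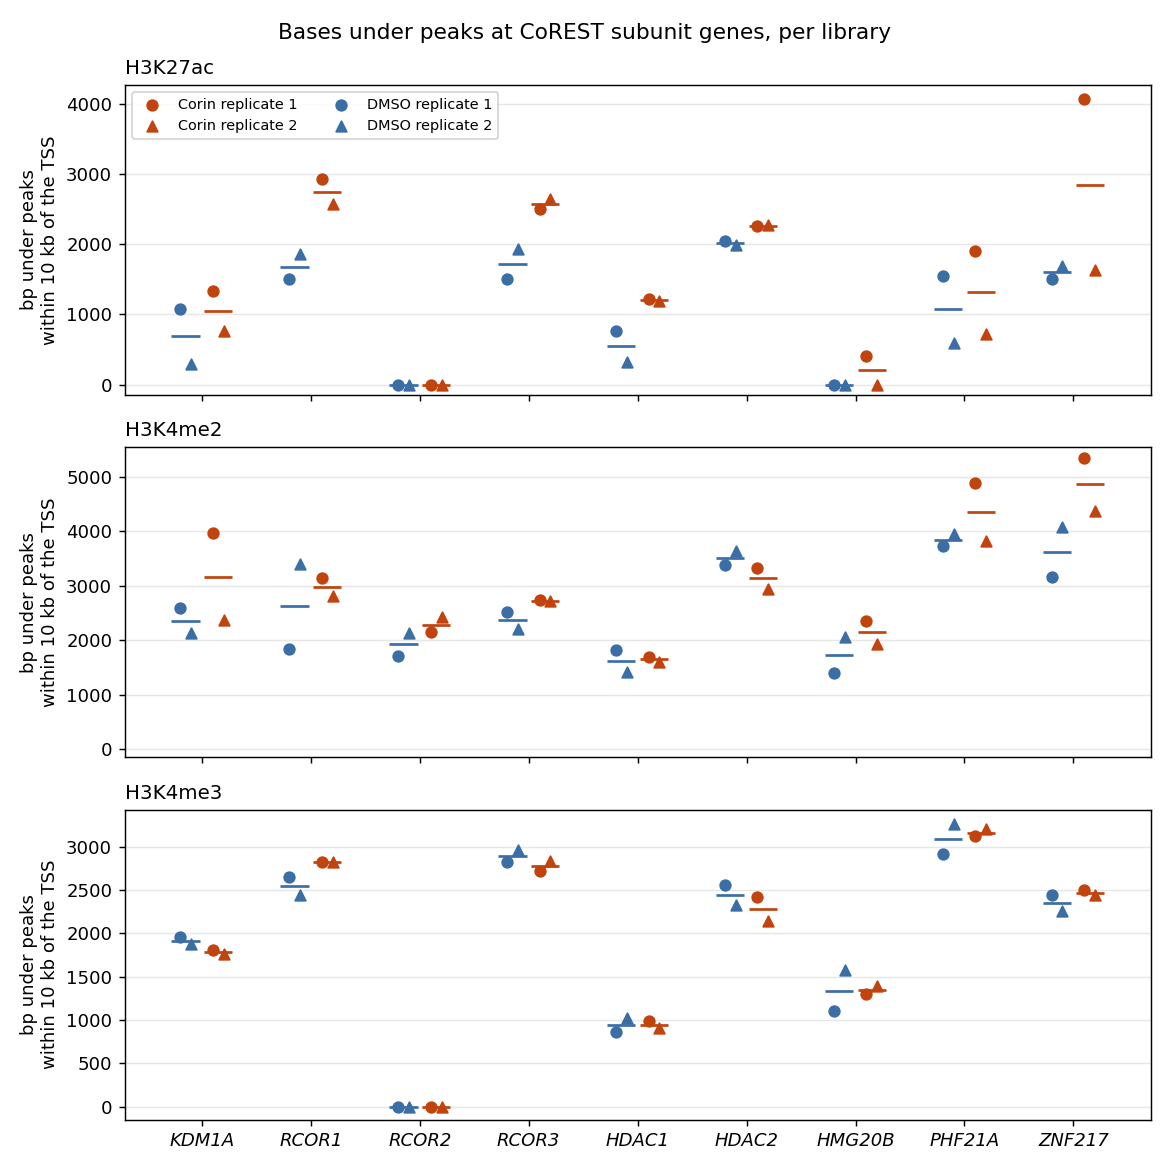
Base pairs under peaks within 10 kb of the TSS for each gene and library, with 1 panel per mark, circles for replicate 1, triangles for replicate 2, and short lines at the mean of 2 libraries. H3K27ac lies higher in Corin at RCOR1, RCOR3, HDAC1 and HDAC2 without overlap, and the H3K4me3 values of the 2 treatments lie close together.

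In H3K4me2, the mark that KDM1A removes, RCOR2, RCOR3 and ZNF217 were higher in both Corin libraries, which is 3 of 9 members against 40.5% of 13932 genes, and HDAC2 was lower, which is 1 of 9 against 4.0% of genes. The members' median log2 fold change was 0.20 against 0.12 over all genes, and 7 of 9 lay above that median. Within 2 kb of the TSS the median over all genes was 0.06. There RCOR1 (0.13), RCOR2 (0.20) and HMG20B (0.26) lay above it, and PHF21A was at 0.06. KDM1A (0.02), RCOR3 (0.02), HDAC1 (0.02), HDAC2 (-0.22) and ZNF217 (-0.08) lay below it. limma called 0 members and 0% of genes, with adjusted p from 0.375 to 0.977 for the members. At an unadjusted p below 0.05 there were 0 members and 1909 genes. Without Corin replicate 2 and without DMSO replicate 2 the higher members were 6 of 9 each time, and without DMSO replicate 1 they were 5, against 66.5%, 67.4% and 48.2% of genes. The lower members were 2 of 9 without DMSO replicate 1, against 21.2% of genes, and 2 of 9 without DMSO replicate 2, against 8.28%.

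ZNF217, a zinc-finger protein that binds the complex, had 5344 and 4377 bp of H3K4me2 in Corin and 3153 and 4077 bp in DMSO. The groups did not overlap, and the log2 fold change of 0.38 ± 0.156 was at the 84.0 percentile of all genes, 0.26 above their median (adjusted p 0.375 by limma). Leaving out 1 library at a time moved it between 0.22 (without DMSO replicate 1) and 0.55 (without DMSO replicate 2). With matched numbers of peaks it was 0.16. Within 2 kb of the TSS the same gene had 859 and 1140 bp in Corin and 827 and 1383 bp in DMSO, a log2 fold change of -0.08. The longer coverage under Corin lay between 2 and 10 kb from the TSS.

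HDAC2 had 3327 and 2939 bp of H3K4me2 in Corin and 3385 and 3643 bp in DMSO. Both Corin libraries were lower, and the log2 fold change of -0.15 ± 0.114 was at the 6.25 percentile of all genes (adjusted p 0.669 by limma). The HDAC2 value stayed below 0, from -0.29 to -0.07, under each of the alternatives, except the 5′ end as TSS, which gave it no value. Within 2 kb the values were 2356 and 2148 bp in Corin and 2464 and 2962 bp in DMSO, again without overlap.

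The RCOR2 groups, given above as peak widths, did not overlap, and the log2 fold change was 0.20 ± 0.149 (adjusted p 0.642 by limma). The RCOR2 value was 0.08 without DMSO replicate 1 and 0.33 without DMSO replicate 2. RCOR3 had 2731 and 2712 bp of H3K4me2 in Corin and 2526 and 2204 bp in DMSO, and its log2 fold change was 0.17 ± 0.122 (adjusted p 0.627 by limma). Within 2 kb the RCOR3 libraries overlapped, at 2345 and 2464 bp in Corin against 2513 and 2204 bp in DMSO, with a log2 fold change of 0.02, and it was 0.05 with matched numbers of peaks and 0.05 with scores of at least 100. KDM1A had 3971 and 2366 bp in Corin and 2587 and 2133 bp in DMSO, which overlapped. The KDM1A log2 fold change was 0.33 ± 0.235 (adjusted p 0.627 by limma), at the 79.6 percentile of all genes. It was 0.01 without Corin replicate 1, 0.65 without Corin replicate 2 and 0.02 within 2 kb of the TSS. The libraries of RCOR1, HDAC1, HMG20B and PHF21A also overlapped, with log2 fold changes of 0.20, 0.02, 0.26 and 0.15. A KDM1A region far upstream, chr1:23010813-23011790 outside the gene, from -8655 to -7678 bp of the TSS, was under H3K4me2 peaks over 978 and 463 bp in Corin and 360 and 329 bp in DMSO. It lies beyond the TEX46 starts at -3616 and -5374 bp, so its tie to either gene was not tested.

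In H3K4me3, RCOR1 and ZNF217 were higher in both Corin libraries, 2 of 8 members against 26.5% of 11118 genes, and KDM1A was lower, 1 of 8 against 8.60%. RCOR2 had no peak to test. RCOR1 had 2822 and 2819 bp in Corin and 2653 and 2447 bp in DMSO, a log2 fold change of 0.12 ± 0.0665 (adjusted p 0.85 by limma). KDM1A had 1808 and 1756 bp in Corin and 1952 and 1871 bp in DMSO, a log2 fold change of -0.08 ± 0.0701 (adjusted p 0.908 by limma). All 8 log2 fold changes lay between -0.08 and 0.12, with a median of 0.01 against 0.04 over all genes. limma called 0 members and 0% of genes, and at an unadjusted p below 0.05 there were 0 members and 742 genes. Without DMSO replicate 1 the lower members were 5 of 8, and without DMSO replicate 2 the higher members were 5 of 8, against 26.6% and 50.7% of genes. Without Corin replicate 1, Corin replicate 2 or DMSO replicate 2 the lower members were 2 of 8, against 25.8%, 19.0% and 18.5% of genes.

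**Figure D3:**
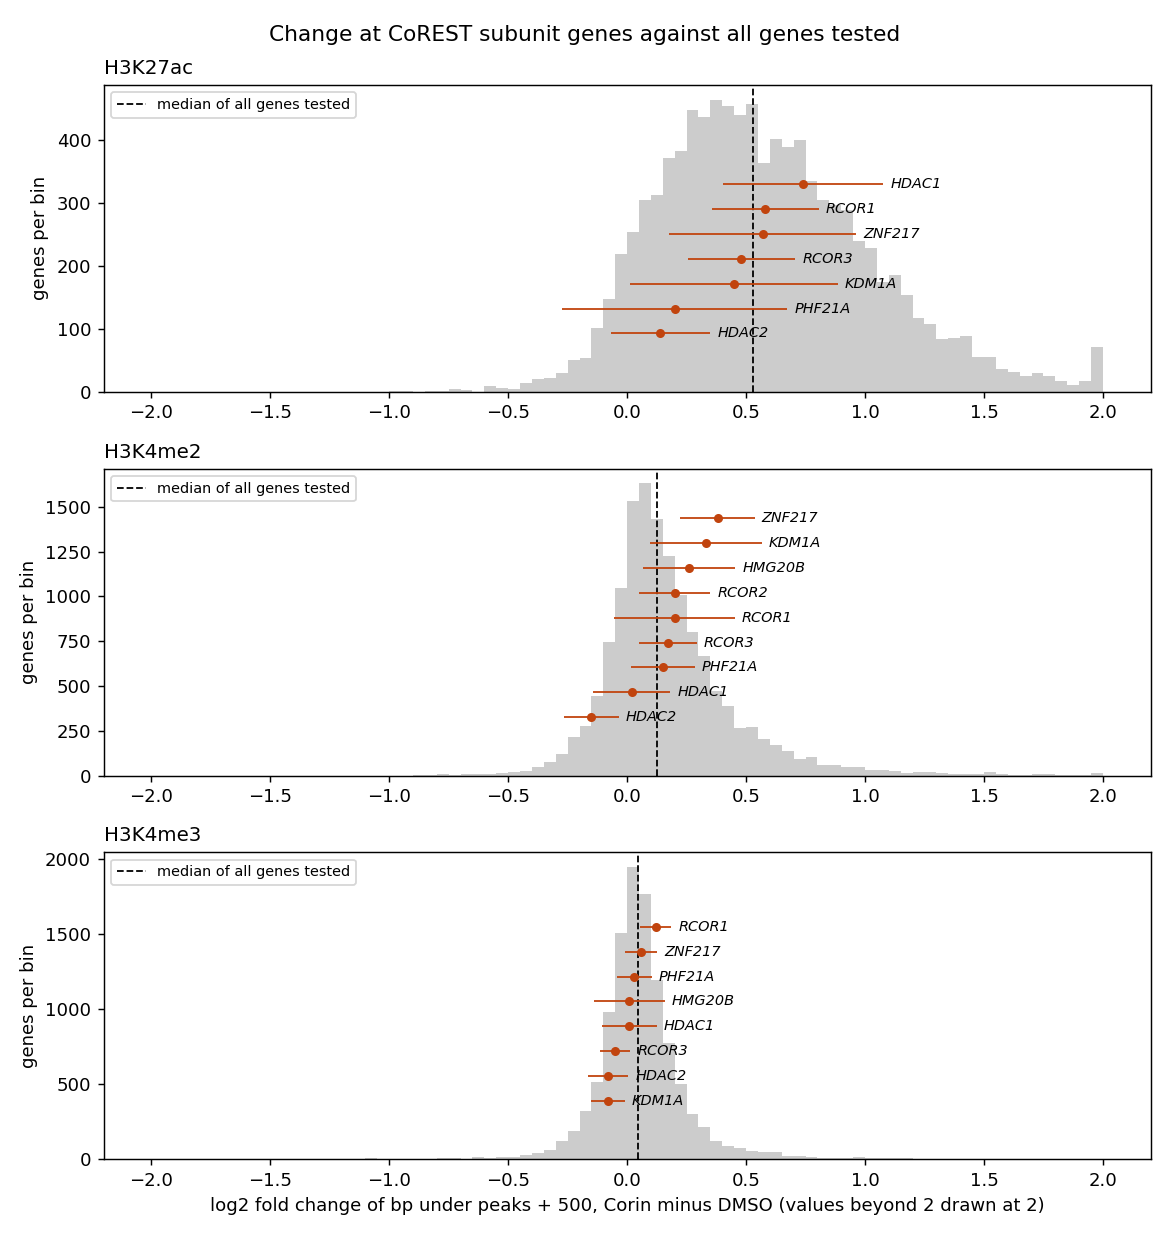
Limma log2 fold changes of bp under peaks, Corin minus DMSO, for the members tested (points, with bars of 1 SE) over the histogram of all genes tested, with 1 panel per mark and a dashed line at the median of all genes. The members spread around that line in each mark, from 0.14 for HDAC2 to 0.74 for HDAC1 in H3K27ac.

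Union regions, made by merging the peaks of a mark's 4 libraries, were then followed over the gene bodies as well. Of 34 H3K27ac regions at the members, 2 were gained, meaning present in both Corin libraries and neither DMSO library, and 11.5% of all 41587 H3K27ac regions were gained. Of 37 H3K4me2 regions, 3 were gained against 9.64% of all. No region was lost at the members in either mark, where 0.180% and 0.158% of all regions were lost. The 9 H3K4me3 regions were present in all 4 libraries, so 0 were gained against 1.49% of all, and 0 were lost against 0.289%.

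Of the 5 gained regions, 4 lay within ZNF217, which also held the most regions. Its 2 gained H3K27ac regions were among 13 and its 2 gained H3K4me2 regions among 12. Its annotated gene body had 6102 and 3473 bp of H3K27ac in Corin and 2700 and 2031 bp in DMSO, 2.02-fold on the means and without overlap, although within 10 kb of the TSS the groups overlapped at 4075 and 1633 bp against 1514 and 1698 bp. Over the gene body the limma log2 fold change was 0.85 with an adjusted p of 0.194, against a median of 0.53 over all genes. Both Corin libraries were higher in H3K27ac over the gene body at 59.7% of 9671 genes. H3K4me2 over the ZNF217 gene body was 8725 and 7227 bp in Corin and 5891 and 6426 bp in DMSO, 1.30-fold. The canonical TSS of ZNF217 lies 16068 bp inside the annotated gene, and the upstream end had H3K27ac and H3K4me2 regions in all 4 libraries of each mark.

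The gained ZNF217 H3K27ac regions were chr20:53578784-53579308, in an intron, with 238 and 388 bp under Corin peaks, and chr20:53581332-53581815, over exon and intron, with 351 and 420 bp. They flank an H3K27ac region present in all 4 libraries, chr20:53579645-53581067, which had 1303 and 825 bp in Corin and 723 and 333 bp in DMSO. The gained H3K4me2 regions, chr20:53586555-53586983 and chr20:53587176-53587602, both intronic, lay 6237 to 7284 bp downstream of the TSS and had 410 and 379 bp and 427 and 289 bp under Corin peaks. Neither H3K4me2 region was gained when the lists were limited to the same number of peaks or to scores of at least 100.

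The exon-spanning H3K27ac region was gained under each of the 4 ways of choosing peaks or counting overlap, and its shared core is printed for that reason. It is the stretch under the peaks of both Corin libraries, chr20:53581396-53581682 of hg38 on the minus strand, of 287 bases. Capitals mark the 222 bases of a coding exon, and lower case the intron that follows.
ZNF217 core: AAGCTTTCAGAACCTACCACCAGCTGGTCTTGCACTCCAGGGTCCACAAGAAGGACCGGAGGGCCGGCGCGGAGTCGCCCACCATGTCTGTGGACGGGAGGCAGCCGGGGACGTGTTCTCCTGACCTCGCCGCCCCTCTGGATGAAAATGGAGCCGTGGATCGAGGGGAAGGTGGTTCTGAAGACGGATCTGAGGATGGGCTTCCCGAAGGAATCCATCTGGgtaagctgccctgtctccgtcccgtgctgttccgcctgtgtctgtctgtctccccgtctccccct

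The remaining gained region was an H3K4me2 peak in an RCOR1 intron, chr14:102659570-102659948, 66921 bp downstream of the TSS, with 379 and 292 bp in Corin. Its Corin peaks had scores of 69 and 53, near the lowest deposited score of 50. Over the RCOR1 gene body H3K27ac covered 3450 and 1603 bp in Corin and 1019 and 900 bp in DMSO. The groups did not overlap, and the ratio of means was 2.63, with a log2 fold change of 0.98 and an adjusted p of 0.184 by limma. Over gene bodies, 59.7% of all genes were likewise higher in both Corin libraries, with a median log2 fold change of 0.53. At RCOR1, Corin replicate 1 was far the highest, with 3 H3K27ac regions between 48205 and 52346 bp downstream that Corin replicate 2 lacked. The first of these regions also had 312 bp in DMSO replicate 1.

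Genes of the partner and related deacetylase complexes, 62 in 6 lists, gave the setting. In H3K27ac, 32 of 46 tested (69.6%) were higher in both Corin libraries and 0 lower, against 60.4% and 0.654% of all genes. By list the higher genes were 9 of 10 CoREST partners and recruiters, 6 of 7 NuRD, 6 of 11 SIN3, 5 of 6 NCoR, 3 of 5 MiDAC, MIER and RERE, and 3 of 7 other histone deacetylase genes. In H3K4me2, 18 of 60 (30.0%) were higher and 4 lower (CTBP1, GFI1, GATAD2A and ING2), against 40.5% and 4.0% of all genes. In H3K4me3, 20 of 56 (35.7%) were higher and 6 were lower (CHD4, GATAD2A, ARID4B, SIN3B, HDAC3 and HDAC6), against 26.5% and 8.60% of all genes. limma called 0 of them in each mark, with 19, 2 and 5 at an unadjusted p below 0.05, against 24.6%, 13.7% and 6.67% of all genes. The genes listed as lower were named after their values were seen.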

How the data were processed

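Peak lists of 12 of the 19 libraries were analysed. Not analysed here were 4 libraries of retinoic acid plus Corin, the LSD1 library and 2 IgG libraries, so the comparisons have no antibody control. Per the submitters' processing notes, Trim Galore, Bowtie2, Picard and MACS2 were used with hg38. Settings and thresholds are not given in the sources used here. Each list holds 1 library's peaks with a score deposited by the authors, a whole number of at least 50 that no source defines, so scores were compared within 1 list and never between lists. All 292523 peaks fit inside the hg38 chromosomes.

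Base pairs under peaks were summed per gene and library within 10 kb of the TSS of the Ensembl canonical transcript. limma 3.58.1 (R 4.3.3; trend and robust) was fitted per mark on log2(bp + 500) for genes with a peak in at least 2 of 4 libraries, and a gene was called at an adjusted p below 0.05. Such fold changes understate those of genes with few bp. Tested on simulated data, the fit recovered the directions of changes in all 3 marks but called changed genes only in H3K4me2 and H3K4me3. Regions present in a library overlap a peak by at least 1 bp.

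All 9 members are named, with genes of 6 related lists if limma called them (it called 0), those lower in both Corin libraries, a choice made after their values were seen, and the 3 genes of most like pattern, of which 1 is not reported here. Members and lists were chosen with earlier results of these data known. Alternatives were windows of 2 kb, gene body and 5′ end, matched peak numbers, a score of at least 100, pseudocounts of 100 and 2000 bp, centring, no filter, a replicate block and leaving out each library.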

Additional observations from a re-analysis of the deposited data

How the results depend on the processing

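Over 24 member values and 332 alternatives, 304 kept the direction of the log2 fold change, 28 reversed, and limma called none, with a lowest adjusted p of 0.124. Without a library in turn, members higher were 4 to 7 (H3K27ac; 69.4% to 80.9% of genes), 3 to 6 (H3K4me2; 48.2% to 67.4%) and 2 to 5 (H3K4me3; 37.9% to 50.7%), and members lower were 1 to 2 (H3K4me2; 7.39% to 21.2%) and 2 to 5 (H3K4me3; 18.5% to 26.6%). With matched peak numbers, members higher were 2 in H3K27ac (40.1% of genes) and 1 in H3K4me2 (32.1%), and regions gained were 1 and 0 (4.49% and 3.91% of all regions). Within 2 kb, 1 was higher in H3K4me2 (28.6%). With the 5′ end as TSS, 0 of 8 were lower in H3K4me2 (3.92%) and 1 of 6 higher in H3K4me3 (26.4%). HDAC2 was not tested with that TSS, and neither was ZNF217 in H3K4me3. Over the gene body 2 were lower in H3K4me3 (9.36%). With the replicate block 6 of 7 members were higher in H3K27ac (72.9%), 4 of 9 in H3K4me2 (51.0%) and 2 of 8 in H3K4me3 (38.2%), and 3 were lower in H3K4me3 (16.0%). Where peaks had to cover 50% of a region, 1 was gained in H3K27ac (15.1% of all regions) and 1 lost in H3K4me2 (0.273%), both in ZNF217. At a score of at least 100, 3 of 21 were gained in H3K27ac (14.7% of all regions), 0 in H3K4me2 (9.53%) and 1 in H3K4me3 (1.42%), those gained being in ZNF217.

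Reversed H3K27ac values were HDAC1 -0.13 (matched numbers) and -0.13 (score of at least 100), PHF21A -0.0018 (matched numbers), and, with libraries centred on their medians, KDM1A -0.12, RCOR3 -0.09, HDAC2 -0.43 and PHF21A -0.37. Over the leave-one-out fits PHF21A ran from -0.29 to 0.68 and KDM1A from -0.04 to 0.94. In H3K4me2 they were ZNF217 -0.08 (2 kb), HDAC1 -0.09 and PHF21A -0.01 (gene body), PHF21A -0.07 (matched numbers) and -0.03 (score), and HDAC1 -0.12 (centred). Over the leave-one-out fits HDAC1 ran from -0.12 to 0.16, PHF21A from -0.0039 to 0.31 and RCOR1 from -0.17 to 0.57. In H3K4me3 they were HDAC1 -0.04, HMG20B -0.04 and PHF21A -0.02 (centred), and over the leave-one-out fits HDAC1 ran from -0.07 to 0.09, HMG20B from -0.17 to 0.20 and PHF21A from -0.04 to 0.10. The causes of the other changes were not tested; HDAC1's peak in Corin replicate 2 fell under the score threshold by construction.

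Over all genes, limma's calls of 0 became 1123, 652 and 197 (H3K27ac, H3K4me2, H3K4me3) with no filter, 68 in H3K4me2 with centring and 531 in H3K4me2 with the replicate block, with 0 members among them. Same-numbered libraries deviated together at a correlation of 0.319, 0.296 and 0.249, but with 2 pairs per mark and no label that says what a number shares, the block stayed an alternative. It changed no member's call. Unknown depth limits what a missing peak shows.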

Other observations

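Summed over the 9 members, H3K27ac covered 16645 and 11831 bp in Corin and 9973 and 8700 bp in DMSO, H3K4me2 29603 and 24983 bp against 22161 and 25020 bp, and H3K4me3 17660 and 17489 bp against 17296 and 17722 bp. Among 6194 genes with coverage in all 12 libraries and windows apart from the members', those whose bp, centred on each mark's mean, followed this sum closely included AGO4 (r = 0.980) and GGA2 (r = 0.972). AGO4, an Argonaute protein, had 4310 and 3489 bp of H3K27ac in Corin and 2720 and 2157 bp in DMSO. GGA2, a Golgi sorting adaptor, had 3473 and 2232 bp against 1729 and 1550 bp. These correlations describe 12 libraries that share their peak lists and list lengths.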
